A study of Mus musculus with 8 samples.

Results

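Chemokines, interleukins and their receptors were followed in brain endothelial cells (ECs) of mouse pups with and without an active MAP2K1 allele. The genes were taken by name from the normalized table that the authors deposited: every gene whose symbol begins with *Ccl*, *Cxcl*, *Ccr*, *Cxcr*, *Ackr* or *Il* and a digit, or with *Ccrl*. This gave 83 of 16889 genes, namely 15 CC ligands, 8 CXC ligands, 8 chemokine receptors, 5 atypical chemokine receptors, 17 interleukins, 28 interleukin receptors and 2 interleukin inhibitors. In all, 143 annotated symbols fitted the names, and the other 60 had at most 80 counts summed over the 8 libraries and are outside the table. *Il7* (37 counts) and the receptor gene *Cxcr6* (73 counts) are among those 60, and 15 of them had no count at all.

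The mutant pups carried the genotype *R26 GT-Map2k1-GFP*/+;*Tg-Cdh5CreER*+/-. The recombined *Rosa* allele expresses a *Map2k1* cDNA with the activating K57N change and GFP from the CAG promoter, and the *Cdh5* promoter limits the tamoxifen-activated Cre to ECs. Only part of the brain ECs of a mutant pup recombine the allele, so each mutant library mixes recombined and unrecombined cells. The controls were wild-type littermates, although the title of 1 supplementary list calls a control Tg:Cdh5-CreER. Both groups are on a C57BL/6J background, received tamoxifen at postnatal day (P) 1 and gave brain ECs at P9, which were bound to beads through the surface protein CD31. RNA of 4 mutant and 4 wild-type pups was sequenced, with 1 library per pup. Wild-type pups were matched in number to the mutant pups of their litter, and the labels do not say which libraries share a litter.

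Chemokines are small secreted proteins that bind to the matrix on vessel walls and draw cells toward their source through receptors coupled to G proteins. Atypical chemokine receptors bind the same ligands without coupling to G proteins and remove, carry or present them. Interleukins act through paired receptor chains, most of which signal through JAK kinases and STAT factors, while receptors of the IL-1 and IL-18 family signal through MYD88. Brain ECs are known for CXCL12, which acts on CXCR4 and ACKR3 in vessel growth, and for answering inflammatory cytokines such as IL-1 and IL-6 across the barrier between blood and brain.

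The stretches of promoter shown here belong to chemokine and interleukin genes that are described further on, and all were read from RefSeq (GRCm38.p6), 5′ to 3′ on the strand of the gene. The first 3 are shown because a run of 11 bases is identical in them, at -71 to -61 for *Cxcl1* (chr5:90891125-90891214, plus strand), -97 to -87 for *Cxcl2* (chr5:90903779-90903868, plus strand) and -73 to -63 for *Cxcl3* (chr5:90785981-90786070, plus strand), with the start site at 0. Among the 60 genes with windows, 1 of the 3 windows of *Il16* (chr7:83655446-83655745, minus strand) holds the same 11 bases, at -49 to -39. Capitals mark a match to the NF-kB motif in them.
Cxcl1: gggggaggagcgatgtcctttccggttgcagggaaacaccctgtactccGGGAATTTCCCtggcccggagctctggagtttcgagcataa
Cxcl2: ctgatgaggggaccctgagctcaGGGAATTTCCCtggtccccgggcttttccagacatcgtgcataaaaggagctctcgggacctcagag
Cxcl3: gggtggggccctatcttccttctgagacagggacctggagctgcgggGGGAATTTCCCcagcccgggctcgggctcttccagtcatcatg

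The next set holds *Cxcl10* (chr5:92348940-92349059, minus strand), *Il6* (chr5:30013024-30013113, plus strand) and *Il19* (chr1:130940146-130940235, minus strand), shown for comparison because their NF-kB matches differ in sequence. Capitals mark NF-kB matches and, in *Cxcl10* only, a match to the AP-1 motif TGANTCA from -74 to -68.
Cxcl10: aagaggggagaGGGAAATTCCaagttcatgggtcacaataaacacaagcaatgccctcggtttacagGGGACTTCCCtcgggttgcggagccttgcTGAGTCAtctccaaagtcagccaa
Il6: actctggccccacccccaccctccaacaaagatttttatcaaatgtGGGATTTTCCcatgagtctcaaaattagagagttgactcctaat
Il19: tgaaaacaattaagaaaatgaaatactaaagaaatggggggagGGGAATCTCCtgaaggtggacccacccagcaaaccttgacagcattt

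*Cxcl12* (chr6:117168385-117168534, plus strand) and *Ackr1* (chr1:173333504-173333653, minus strand) are shown because the largest fall among ligands of high level and the rise of an atypical receptor concern these genes, and neither holds a match to the motifs searched.
Cxcl12: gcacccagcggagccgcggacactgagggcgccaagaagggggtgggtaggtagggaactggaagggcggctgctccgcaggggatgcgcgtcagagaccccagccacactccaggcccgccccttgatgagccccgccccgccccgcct
Ackr1: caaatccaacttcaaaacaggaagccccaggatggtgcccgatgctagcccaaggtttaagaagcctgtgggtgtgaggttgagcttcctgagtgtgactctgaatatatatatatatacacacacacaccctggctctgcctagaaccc

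Windows of 300 bases around the start site were found for 60 of the 83 genes and searched on both strands. The NF-kB motif was in the windows of 14 of the 60 genes (23.3%) against 5.14% of 27025 genes with such windows, or 4.51% of 32851 windows. The AP-1 motif TGANTCA was in 11 of the 60 (18.3%) against 8.97% of genes. An ETS motif (CCGGAAGT), a CRE motif (TGACGTCA) and the CArG motif were in none of the 60, against 4.31%, 2.03% and 1.81% of genes. Neighbouring motifs of *Cxcl1*, *Cxcl2*, *Cxcl3* and *Il16* overlap and were counted once per gene. A match describes these letters only, and binding was not measured.

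Of the 83 genes, 81 passed the filter on low counts, and *Ccl22* and *Il17f* did not. Transcript abundance differed between mutant and wild-type ECs for 28 of the 81 (34.6%) when the Benjamini-Hochberg adjusted p of edgeR (quasi-likelihood test over all 16887 genes tested) had to be under 0.05, with 16 higher and 12 lower in mutant ECs. The background of the same comparison is 44.4% of all genes tested, with 21.5% higher and 22.9% lower. With the prefix of the library labels as a block in the same fit, 45 of the 81 genes (55.6%) had an adjusted p under 0.05, 30 higher and 15 lower, against 51.0% of all genes. Without a block or a filter on low counts (32751 genes), the shares were 39.8% of the 83 genes against 22.1% in edgeR. In DESeq2 they were 39.8% against 23.9%. Those 32751 genes include many below the 81 counts in all that each of the 83 has, so these shares are not like for like. With only the 16889 genes of the normalized table tested in edgeR, the shares were 33.7% of the 83 against 44.7%. Among like sets of genes, which share is larger thus depends on the use of a block. A gene that also had a log2 fold change beyond 1 in either direction is called differentially expressed here. This was so for 16 of the 81 genes (19.8%) against a background of 14.0%, with 9 higher (background 5.9%) and 7 lower (background 8.05%). Both groups of libraries were fully apart for 20 of the 81, 11 higher and 9 lower, where 42.5% of all genes did not overlap (20.6% higher and 21.9% lower). The median log2 fold change of the 81 genes was 0.15, with 46 above 0 and 35 below, beside -0.02 over all genes. Words such as rose and fell are used only for genes with an adjusted p under 0.05.

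The counts by family were not tested against each other, and stand beside the 44.4% of all genes that passed the test. Among 14 CC ligands, 3 rose and 2 fell (median log2 fold change 0.21), and among 8 CXC ligands 1 rose and 1 fell (median 0.15). Of 8 chemokine receptors, 1 rose and 3 fell (median -0.10), and of 5 atypical receptors 1 rose (median -0.01). Interleukins had 4 that rose and 2 that fell among 16 (median 0.63), and interleukin receptors 6 that rose and 4 that fell among 28 (median 0.12). Neither of the 2 inhibitors passed the test (median 1.32). The sign of the median turned for CC ligands without mutant replicate 3 (-0.20), for chemokine receptors without mutant replicate 1 (0.11), and for atypical receptors without wild type replicate 2 (0.12).

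**Figure D1:**
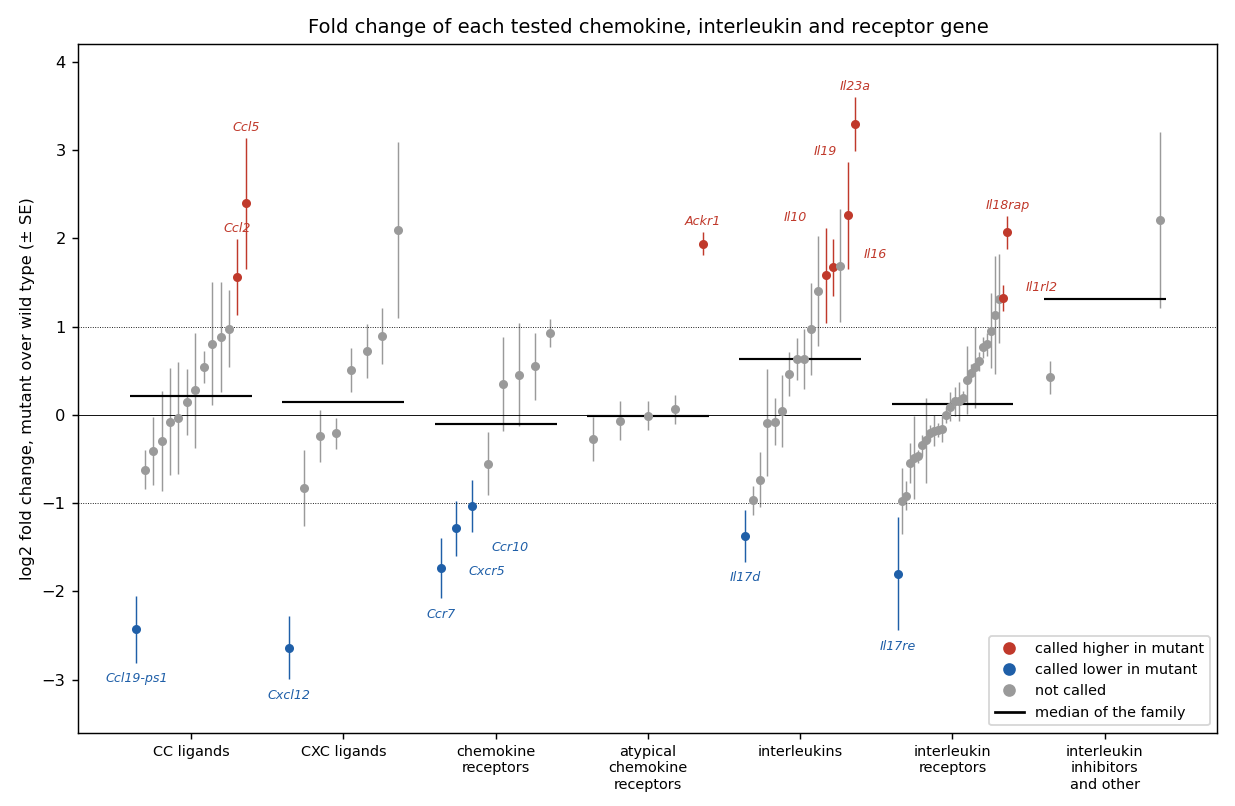
Each point is 1 of the 81 tested genes, placed by family on the x axis and by its log2 fold change between mutant and wild-type ECs on the y axis, with its standard error. Red and blue points are the 9 genes called higher and the 7 called lower, grey points the rest, black bars the family medians and dotted lines a log2 fold change of 1 and -1. *Il23a* (3.29) is the highest point and *Cxcl12* (-2.64) the lowest.

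Between 24833373 and 34196955 reads per library were counted on genes. *Map2k1*, the chromosome 9 gene on which reads of the cDNA in the *Rosa* allele can also be counted, averaged 14582 ± 2844 normalized counts in the 4 mutant libraries and 1607 ± 116 in the 4 wild-type libraries (± SD), and no mutant library overlapped a wild-type library. Normalized counts are counts scaled by library at the mean library size. The 10 endothelial markers summed to 12240 to 14820 CPM (counts scaled to a common library total) in mutant and 11510 to 13950 in wild-type libraries (two-sided exact permutation test, p = 0.914). Within this sum 3 markers rose and 3 fell. *Cdh5* was called higher (2.15-fold) and *Emcn* (1.77-fold) and *Pecam1* (1.44-fold) rose, while *Kdr*, *Cldn5* and *Tek* fell by 0.59, 0.47 and 0.44 on the log2 scale. Other cell types were present at lower sums, among them pericytes (714 to 1145 CPM in mutant, 640 to 1151 in wild-type libraries, p = 0.686, with *Abcc9* called higher), fibroblasts (1054 to 1367 and 918 to 1226, p = 0.143), smooth muscle (66.1 to 184 and 86.2 to 211, p = 0.514) and platelets (12.7 to 19.4 and 12.6 to 15.7, p = 0.343), each by the same exact test. Within these sums 2 pericyte, 2 fibroblast and 1 smooth muscle markers rose, while 1 fibroblast and 1 platelet marker fell. Markers of the oligodendrocyte lineage (25.8 to 55.5 and 88.0 to 257 CPM, 6 of 6 called lower) and of red blood cells (78.8 to 252 and 469 to 813 CPM, 5 of 5 called lower) were lower in all mutant libraries (exact p = 0.0286, the smallest that 4 against 4 allow). The astrocyte sum was higher in all mutant libraries (622 to 746 and 367 to 436 CPM, exact p = 0.0286) with none of its 6 markers called. Of those 6, 1 rose and 1 fell, so the markers did not move together. Neuron markers had 5 of 8 called lower (14.4 to 19.6 and 16.6 to 78.9 CPM, exact p = 0.143). In such bulk samples, fewer cells of a type and less RNA per cell cannot be told apart.

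Levels between genes were compared as normalized counts per kilobase (kb) of exon. In wild-type libraries the genes of highest level were *Cxcl12* (2171 ± 409 per kb, SD, n = 4), *Cxcr4* (1526 ± 263), *Cxcl1* (1347 ± 429), *Il2rg* (1090 ± 81.4), *Il6st* (1038 ± 58.9), *Cxcl2* (1001 ± 233), *Ccl3* (773 ± 603), *Il4ra* (530 ± 32.9), *Cxcl10* (505 ± 44.6) and *Ccl4* (460 ± 315). The mean ± SD of each of these genes overlapped that of the next in the order. These are levels of the bead-bound cells as a whole, with other cell types among them. *Ccl3* and *Ccl4* were high in the libraries with the highest microglia sums, as described further on. A ligand led the wild-type order and its receptor came next. In mutant libraries *Cxcr4* was first (2910 ± 594 per kb) and *Cxcl12* was at rank 18 (349 ± 187 per kb). *Ackr1* moved from rank 12 (413 per kb) to rank 4 (1582 per kb), and *Il1r1* from rank 14 to rank 8.

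**Figure D2:**
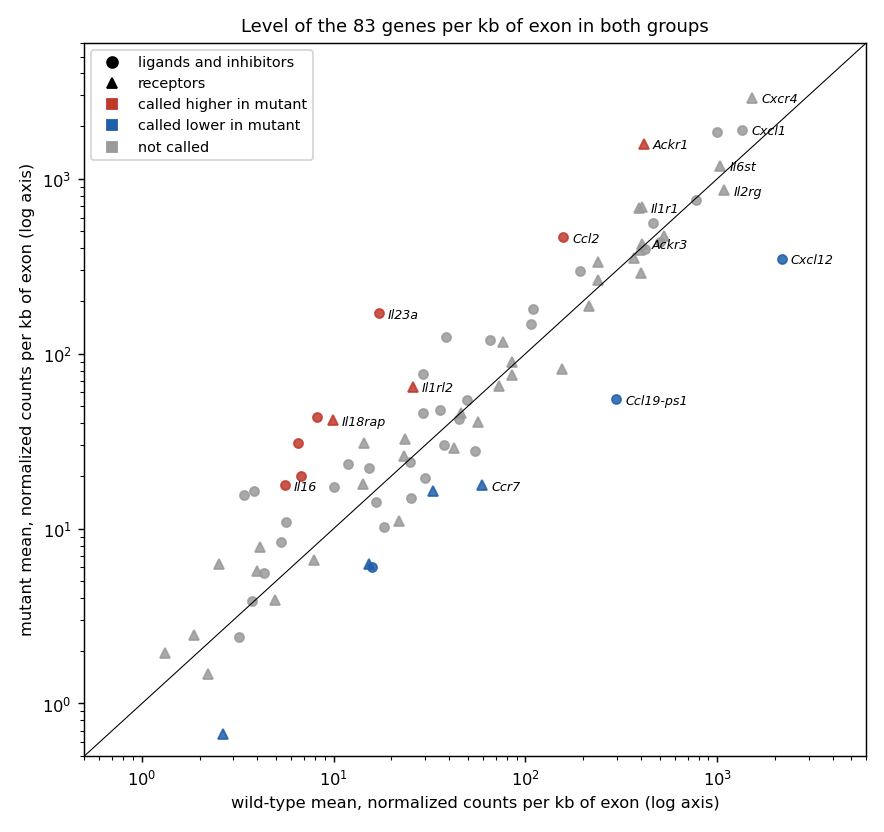
Mean level of each of the 83 genes in wild-type (x axis) and mutant libraries (y axis), in normalized counts per kb of exon on log axes, with circles for ligands and inhibitors, triangles for receptors, and red or blue for genes called higher or lower in mutant ECs. The line marks equal levels; *Cxcl12* lies far below it (2171 against 349 per kb), and *Ackr1* (413 against 1582) and *Il23a* lie above.

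*Cxcl12*, the ligand that holds CXCR4-bearing cells and guides growing vessels, fell in mutant ECs. The gene (ENSMUSG00000061353, chr6:117168535-117181367 of GRCm38, plus strand) had 1225, 3694, 4535 and 1952 normalized counts in mutant libraries 1 to 4 and 19411, 19835, 12764 and 18990 in wild-type libraries 1 to 4. Every mutant library was below every wild-type library. The means were 2852 ± 1527 and 17750 ± 3342 (SD, n = 4), which is 6.22-fold lower in mutant ECs (log2 fold change -2.64, standard error (SE) 0.36, adjusted p = 0.000252). With any 1 library removed, the log2 fold change lay between -2.94 and -2.36. The fibroblast and pericyte sums given above, of cell types that also make CXCL12, overlapped between the groups, and their part in the fall was not tested.

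*Cxcr4* encodes the signalling receptor for CXCL12 and is known in tip cells of growing vessels. It rose, from 2268, 2575, 2801 and 3394 normalized counts in the wild-type libraries to 6215, 4002, 4734 and 6093 in the mutant libraries, and the groups did not overlap. The difference was 1.91-fold (log2 fold change 0.93, SE 0.16, adjusted p = 0.000965), just inside the fold limit, and it passed that limit without mutant replicate 2 (1.04) and without wild type replicate 4 (1.06). *Ackr3* encodes the scavenging receptor for the same ligand. It had 1876, 1137, 1139 and 1541 normalized counts in mutant and 1423, 1478, 1119 and 1432 in wild-type libraries, so the groups overlapped (log2 fold change 0.06, SE 0.16, adjusted p = 0.778). Of the ligand and its pair of receptors, then, the ligand was lower, the signalling receptor higher, and the scavenging receptor showed no difference beyond the spread between pups.

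**Figure D3:**
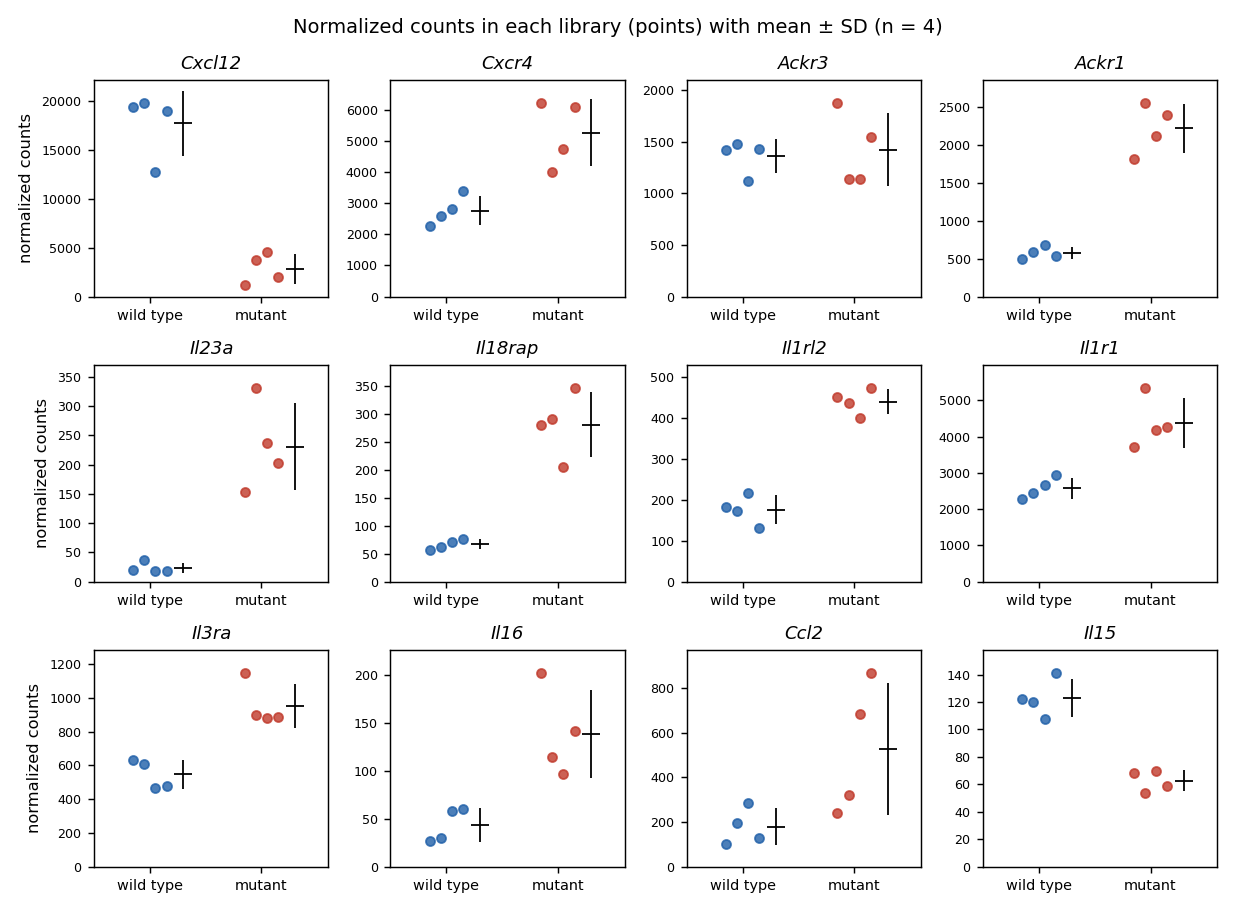
Normalized counts (y axes, from 0) of 12 genes in each of the 4 wild-type (blue) and 4 mutant (red) libraries, with mean ± SD beside the points. The groups do not overlap for *Cxcl12*, *Cxcr4*, *Ackr1*, *Il23a*, *Il18rap*, *Il1rl2*, *Il1r1*, *Il3ra*, *Il16* and *Il15*, and they overlap for *Ackr3* and *Ccl2*. The 12 genes were picked by hand. Of all 81 tested genes of the families 20 did not overlap, beside 42.5% of all genes.

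*Ackr1*, the Duffy antigen receptor, binds many inflammatory CC and CXC chemokines and is known from the endothelium of venules and from red blood cells. Its transcript rose from 501, 591, 686 and 541 normalized counts in wild-type libraries to 1821, 2554, 2115 and 2401 in mutant libraries. The lowest mutant library was above the highest wild-type library. The difference was 3.83-fold (log2 fold change 1.94, SE 0.13, adjusted p = 3.94e-06), with left-out libraries moving it between 1.87 and 2.05. The gene (chr1:173331886-173333750, minus strand) overlaps *Cadm3* on the same strand, which had 1454 counts in all against 10921 for *Ackr1*. All 5 red blood cell markers moved the other way, as given above, and the part of those cells in the level of *Ackr1* was not tested. The other 4 atypical receptors did not pass the test. *Ackr2*, which scavenges inflammatory CC chemokines, had 870 to 1617 normalized counts in mutant and 1120 to 1292 in wild-type libraries (log2 fold change -0.01, adjusted p = 0.96). *Ccrl2*, which binds chemerin, had log2 fold change -0.07 and *Ackr4*, a scavenger of CCL19, CCL21 and CCL25, -0.27.

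Of the 7 other CXC ligands, only *Cxcl2* passed the test, while *Cxcl1*, *Cxcl3*, *Cxcl11* and *Cxcl16* had differences that could not be told from the spread between pups. *Cxcl2*, a neutrophil attractant of the chromosome 5 cluster whose promoter stretch is shown above, rose from 1791, 2470, 2485 and 1537 normalized counts to 1997, 2490, 5655 and 5257 (log2 fold change 0.90, SE 0.32, adjusted p = 0.0411). Mutant libraries 3 and 4 were the high ones, and the other mutant libraries lay within or near the wild-type range. The adjusted p was over 0.05 without mutant replicate 3 (0.115) or 4 (0.105) and without wild type replicate 1 (0.0975), 2 (0.0536) or 4 (0.0965). *Cxcl1*, a neighbour with the same ligand type and the same 11 bases in its promoter, had 2254, 3383, 4919 and 3755 normalized counts in mutant and 2555, 3624, 2184 and 1739 in wild-type libraries (log2 fold change 0.50, SE 0.25, adjusted p = 0.127). *Cxcl3*, which also has those bases, had 5.05, 14.3, 59.7 and 151 normalized counts against 3.68, 1.88, 38.8 and 9.47 (log2 fold change 2.09, SE 1.00, adjusted p = 0.113). Its counts varied by more than 10 times within each group, so a 4.25-fold difference could not be told from the spread. With the label prefix as a block its adjusted p was 0.0196 (log2 fold change 2.01). *Cxcl10*, an interferon-induced ligand of CXCR3, had 644 to 1302 normalized counts in mutant and 1015 to 1261 in wild-type libraries (log2 fold change -0.21, adjusted p = 0.349). Among further ligands of this family, *Cxcl11* (-0.83) and *Cxcl14* (-0.24), and the membrane-bound *Cxcl16* (0.72) did not pass the test either, though *Cxcl16* did with the prefix as a block (adjusted p = 0.0116).

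Among the CC ligands, the monocyte attractant *Ccl2* rose, from 100, 197, 286 and 130 normalized counts in wild-type to 240, 322, 682 and 866 in mutant libraries. Only mutant library 1 lay inside the wild-type range. The difference was 2.96-fold (log2 fold change 1.56, SE 0.43, adjusted p = 0.0132), and it was called with each library left out (1.24 to 1.89). *Ccl5*, which attracts T cells and monocytes, had 6.32, 15.4, 52.0 and 92.0 normalized counts in mutant and 2.76, 8.44, 12.9 and 7.36 in wild-type libraries. It was called higher (log2 fold change 2.40, SE 0.74, adjusted p = 0.0232), with mutant libraries 3 and 4 far above the rest. That call was lost without mutant replicate 4 (log2 fold change 1.66, adjusted p = 0.0835) and without wild type replicates 1, 2 or 4 (adjusted p = 0.0644, 0.0523 and 0.052).

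*Ccl19-ps1*, annotated as a pseudogene of the CCR7 ligand CCL19, was called lower, from 133, 102, 63.0 and 91.5 normalized counts in wild-type to 7.58, 15.4, 32.1 and 16.5 in mutant libraries (log2 fold change -2.43, SE 0.38, adjusted p = 0.000573). It has near-identical copies and overlaps *Gm13307* on the opposite strand (444 counts in all against 482), so which copy the reads came from is uncertain. Another 2 CC ligands passed the test under the fold limit and were named after their values were seen. *Ccl25*, a ligand of CCR9, had a log2 fold change of 0.54 (adjusted p = 0.0292) and overlaps *Elavl1* on the opposite strand, which had 15924 counts against 1111. *Ccl27a*, a ligand of CCR10, had -0.62 (adjusted p = 0.0413) and overlaps *Il11ra1*, which had 8878 counts against 475. Without strand, those reads cannot be told from reads of the overlapping gene. Leaving out a library ended the adjusted p under 0.05 in 4 of 8 cases for *Ccl25* and in 6 of 8 for *Ccl27a*.

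Several CC ligands and receptors known from microglia and macrophages were high in the same 3 libraries, which are of both genotypes. *Ccl3*, a ligand of CCR1, had 125, 270, 1082 and 833 normalized counts in mutant and 353, 476, 1273 and 267 in wild-type libraries (log2 fold change -0.03, SE 0.64, adjusted p = 0.969). *Ccl4*, its neighbour on chromosome 11, had 63.1, 150, 681 and 572 against 174, 255, 610 and 176 (log2 fold change 0.28, SE 0.65, adjusted p = 0.755). Mutant libraries 3 and 4 and wild-type library 3 were the high ones for both genes. The same 3 libraries were high for *Ccl9*, *Ccr1* and *Il1a*, none of which passed the test, and for the sum of 12 microglia markers (169, 221, 652 and 511 CPM in mutant, 217, 292, 704 and 187 CPM in wild-type libraries). That sum did not differ by genotype (two-sided exact permutation test, p = 0.943), and none of the 12 markers was called or at 0. *Il10ra*, *Ccl6* and the microglia marker *Cx3cr1* did not keep to these 3 libraries. For them wild-type library 2 (207, 122 and 574 normalized counts) was above mutant library 4 (139, 102 and 548). The markers of border macrophages and monocytes summed to 48.2 to 136 CPM in mutant and 32.4 to 105 CPM in wild-type libraries (same exact test, p = 0.229), with none of 8 called. *Ccl2*, *Ccl5* and *Cxcl2* were also highest in mutant libraries 3 and 4, and the part of these cells in their rise was not tested.

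**Figure D4:**
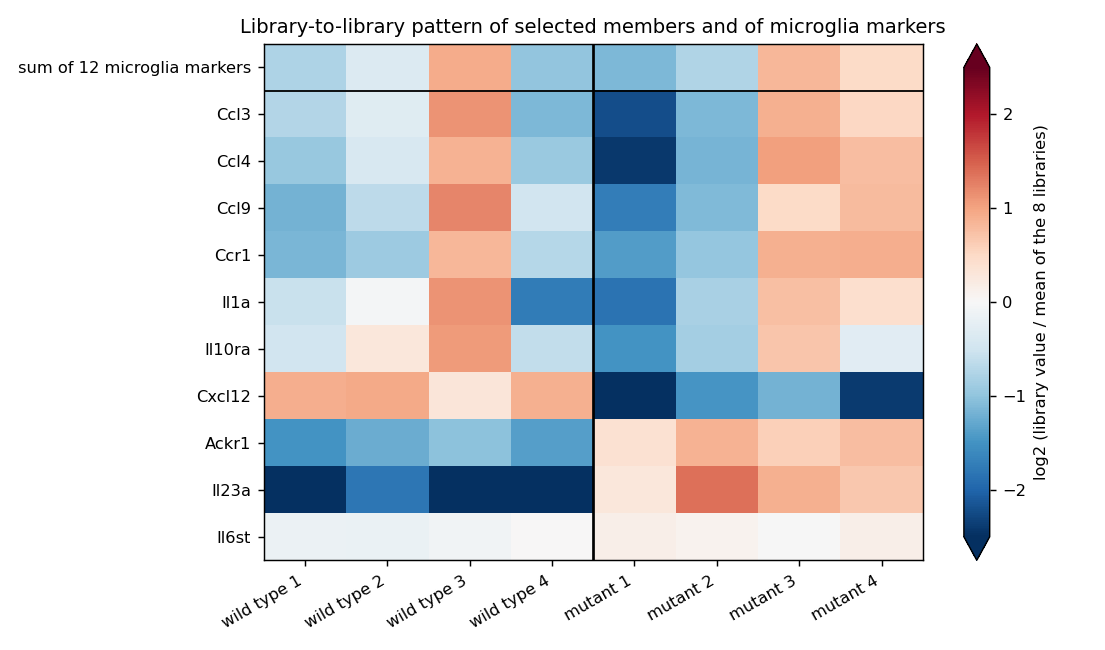
Colour gives the log2 of each library's value over the mean of the 8 libraries, with rows for the summed CPM of 12 microglia markers and for the normalized counts of 10 genes, wild-type libraries left of the line and mutant libraries right; values beyond the colour scale take its end colours. The microglia sum and *Ccl3*, *Ccl4*, *Ccl9*, *Ccr1* and *Il1a* are high in wild-type library 3 and mutant libraries 3 and 4, while *Cxcl12*, *Ackr1* and *Il23a* follow the genotype.

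Of the 8 chemokine receptors, *Cxcr4* rose and 3 receptors known from lymphocytes fell. *Ccr7*, which guides lymphocytes and dendritic cells to CCL19 and CCL21, had 18.9, 23.2, 59.7 and 38.2 normalized counts in mutant and 84.5, 144, 137 and 105 in wild-type libraries (log2 fold change -1.74, SE 0.34, adjusted p = 0.00212). *Cxcr5*, the receptor of follicular B cells, had 13.9, 17.6, 35.4 and 16.5 against 40.4, 54.4, 49.2 and 60.0 (log2 fold change -1.28, SE 0.31, adjusted p = 0.00705). Neither gene overlapped between the groups, and both were called with every library left out. *Ccr10*, the receptor for CCL27 and CCL28, had 30.3, 41.9, 22.1 and 18.2 against 74.4, 59.1, 50.02 and 45.2 (log2 fold change -1.03, SE 0.29, adjusted p = 0.0162). It overlaps *Cntnap1* on the opposite strand (1798 counts against 348). The call on *Ccr10* was lost without mutant replicates 3 (-0.92) or 4 (-0.84), where the fold limit was missed, without wild type replicate 2 (-0.9994), and without wild type replicate 1 (-0.86, adjusted p = 0.0581).

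The 11 lymphocyte markers overlapped between the groups in their sum. They summed to 4.94 to 16.8 CPM in mutant and 11.6 to 22.7 CPM in wild-type libraries (two-sided exact permutation test, p = 0.143), and 2 of the 5 with enough counts to test were called lower. Among them, the B cell marker *Ms4a1* had 5.05 to 18.8 normalized counts in mutant and 29.4 to 76.8 in wild-type libraries. The T cell markers *Cd3e* and *Cd3g* and the natural killer marker *Ncr1* were at 0 in at least 1 library and were too low to test. Neutrophil markers summed to 11.9 to 21.6 CPM in mutant and 13.2 to 30.5 CPM in wild-type libraries (same exact test, p = 0.143), with 1 of 7 called lower. The part of these cells in the fall of *Ccr7* and *Cxcr5* was not tested. *Ccr2*, the receptor for CCL2 on monocytes, had 6.32 to 16.6 normalized counts in mutant and 12.9 to 16.8 in wild-type libraries and did not pass the test (log2 fold change -0.55, adjusted p = 0.235).

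Of the 16 interleukins tested, 4 rose and all 4 were called. *Il23a*, the subunit that makes IL-23 together with the p40 chain, showed the highest fold of all 81 genes. It had 154, 331, 237 and 202 normalized counts in mutant and 19.3, 36.6, 19.0 and 18.9 in wild-type libraries, and the lowest mutant library was more than 4-fold above the highest wild-type library. The means were 231 ± 74.7 and 23.4 ± 8.75 (SD, n = 4), a 9.81-fold difference (log2 fold change 3.29, SE 0.30, adjusted p = 2.66e-05) that stayed between 3.07 and 3.61 with a library left out. The p40 gene, *Il12b*, is outside the table with 37 counts summed over the 8 libraries. *Il12a*, which shares that chain, had 12.1 to 26.9 against 3.68 to 17.9 normalized counts and did not pass the test (log2 fold change 0.97, adjusted p = 0.154), except with the label prefix as a block (adjusted p = 0.0254).

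*Il16*, a chemoattractant for CD4-bearing cells with the 11 bases of *Cxcl1* in 1 window, had 202, 115, 97.3 and 142 normalized counts in mutant and 26.6 to 60.0 in wild-type libraries, with no overlap (log2 fold change 1.67, SE 0.32, adjusted p = 0.00204). Its reads are uncertain because *Stard5* lies across it on the opposite strand, with 4039 counts in all against 700. *Il19* and *Il10* are neighbours on chromosome 1 and belong to the IL-10 family. *Il19* had 27.8, 15.4, 27.6 and 70.3 normalized counts in mutant and 4.59, 1.88, 7.76 and 15.8 in wild-type libraries (log2 fold change 2.26, SE 0.60, adjusted p = 0.0117) and was called with every library left out. *Il10*, the anti-inflammatory member, had 8.84, 17.6, 34.3 and 44.3 against 11.9, 2.81, 12.1 and 8.41 (log2 fold change 1.58, SE 0.54, adjusted p = 0.0347). The call on *Il10* was lost without mutant replicates 3 or 4 (adjusted p = 0.078 and 0.111) and without wild type replicates 1, 2 or 4 (adjusted p = 0.0519, 0.0802 and 0.0702).

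A pair of interleukins fell. *Il15*, which keeps natural killer and memory T cells alive, had 68.2, 54.0, 69.6 and 59.0 normalized counts in mutant and 122, 120, 108 and 141 in wild-type libraries, with no overlap (log2 fold change -0.97, SE 0.16, adjusted p = 0.000965). It lay just under the fold limit, and passed it without mutant replicate 3 (-1.01) and without wild type replicate 3 (-1.02). *Il17d*, a member of the IL-17 family, was called lower, from 19.3, 25.3, 17.2 and 15.8 to 6.32, 7.72, 7.74 and 7.81 normalized counts (log2 fold change -1.37, SE 0.30, adjusted p = 0.00375). The wild-type libraries were all above the mutant libraries. All mutant libraries were under 10 normalized counts, so *Il17d* passed the filter on low counts (minimum count 10) only through its wild-type libraries. Its call and the lack of overlap rest on that choice and on few counts.

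The classic inflammatory interleukins did not pass the test without a block, and *Il1b* and *Il6* passed it with one. *Il1a* had 222 to 1352 normalized counts in mutant and 241 to 1751 in wild-type libraries (log2 fold change -0.09, SE 0.61, adjusted p = 0.917), in the library pattern of the microglia markers. *Il1b* had 75.8, 79.4, 364 and 430 against 40.4, 47.8, 159 and 47.3 (log2 fold change 1.69, SE 0.64, adjusted p = 0.0537), and had an adjusted p under 0.05 without mutant replicates 1 (0.0274) or 2 (0.0291) and without wild type replicate 3 (0.0128). With the label prefix as a block it was called higher (log2 fold change 1.53, adjusted p = 0.00696). *Il6*, whose promoter stretch is shown above, had 440, 640, 704 and 1119 against 381, 504, 523 and 471 (log2 fold change 0.63, SE 0.24, adjusted p = 0.052), which was 0.0155 with DESeq2 and 0.0339 with the prefix as a block (log2 fold change 0.57). *Il34*, a ligand of the CSF1 receptor, had a log2 fold change of 0.46 (adjusted p = 0.158, and 0.0445 with that block). *Il33*, an alarmin of the IL-1 family, had only 7.58 to 14.8 normalized counts in mutant and 4.21 to 15.0 in wild-type libraries.

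The receptors of the IL-1 and IL-18 family lie next to each other on chromosome 1, from *Il1r2* (start at 40074079) to *Il18rap* (end at 40551705). Of the 5 genes of this cluster among the 83, 3 rose, beside 21.5% of all genes tested. *Il18r1* of the same cluster is not among the 83, and the cluster was not tested as a set. *Il18rap*, the accessory chain of the IL-18 receptor, had 280, 291, 206 and 346 normalized counts in mutant and 57.0, 62.8, 71.6 and 76.8 in wild-type libraries, a 4.19-fold difference (log2 fold change 2.07, SE 0.18, adjusted p = 2.19e-05). *Il1rl2*, the receptor for IL-36, had 451, 438, 399 and 473 against 184, 172, 217 and 131 (log2 fold change 1.32, SE 0.15, adjusted p = 8.82e-05). *Il1r1*, the signalling receptor for IL-1 and the most abundant of the cluster, had 3709, 5336, 4173 and 4276 against 2266, 2439, 2667 and 2932, a 1.70-fold difference under the fold limit (log2 fold change 0.76, SE 0.12, adjusted p = 0.000524). No mutant library overlapped a wild-type library in these 3 genes, and each kept an adjusted p under 0.05 with every library left out.

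For the other genes of the cluster and for the accessory chain and ligand, no difference could be told from the spread between pups. *Il18r1*, the chain that binds IL-18 and sits in the same cluster, is outside the table with only 30 counts summed over the 8 libraries (2, 2, 5 and 3 in mutant, 3, 5, 7 and 3 in wild-type libraries). *Il1rl1*, the receptor for IL-33, had 10.1 to 26.5 normalized counts in mutant and 9.47 to 20.7 in wild-type libraries (log2 fold change 0.39, adjusted p = 0.439). *Il1r2*, the decoy receptor for IL-1, had 11.4, 23.2, 59.7 and 142 against 12.9, 17.8, 37.9 and 41.0 (log2 fold change 1.13, SE 0.67, adjusted p = 0.196). *Il1rap*, the shared accessory chain encoded on chromosome 16, had 470 to 572 and 484 to 548 normalized counts and was the gene nearest to no difference (log2 fold change -0.0015, SE 0.09, adjusted p = 0.991). The ligand of IL-18 receptors, *Il18*, had 10.1 to 22.6 against 18.9 to 30.2 normalized counts (log2 fold change -0.74, adjusted p = 0.0778).

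Another 3 receptor chains rose under the fold limit, all with no overlap between the groups, and were named after their values were seen. *Il3ra*, the IL-3 chain that pairs with the common beta chain, had 1146, 897, 878 and 886 normalized counts in mutant and 635, 607, 468 and 475 in wild-type libraries (log2 fold change 0.80, SE 0.13, adjusted p = 0.000775). *Il20rb*, a chain of the receptors for IL-19, IL-20 and IL-24, had 432 to 543 against 291 to 356 (log2 fold change 0.61, SE 0.11, adjusted p = 0.00113). *Il13ra1*, which pairs with the IL-4 receptor chain, had 1104 to 1360 against 813 to 983 (log2 fold change 0.48, SE 0.09, adjusted p = 0.00225). The partner *Il4ra* had 2518 to 3118 against 3009 to 3457 and did not pass the test (log2 fold change -0.17, adjusted p = 0.101).

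In all, 4 receptor chains fell. *Il10rb*, shared by the receptors for IL-10 and IL-22, had 1077, 1063, 1157 and 1130 normalized counts in mutant and 1576, 1597, 1358 and 1594 in wild-type libraries (log2 fold change -0.47, SE 0.07, adjusted p = 0.000638). *Il17rc*, a chain of the IL-17 receptor, had 192, 242, 258 and 188 against 508, 456, 351 and 345 (log2 fold change -0.92, SE 0.16, adjusted p = 0.00131). Its neighbour *Il17re* was called lower at few counts, with 0, 2.21, 2.21 and 11.3 against 13.8, 16.9, 11.2 and 19.99 (log2 fold change -1.80, SE 0.64, adjusted p = 0.0421). Only mutant library 4 had over 10 normalized counts among the mutant libraries, so this gene too passed the filter through its wild-type libraries. The call on *Il17re* was lost without mutant replicates 1, 2 or 3 (adjusted p = 0.0717, 0.101 and 0.0979) and without wild type replicates 1, 2 or 4 (adjusted p = 0.0741, 0.0875 and 0.0945), and the log2 fold change was -3.20 without mutant replicate 4. *Il17ra*, the chain shared in the family, had 599 to 959 and 651 to 937 normalized counts (log2 fold change 0.09, adjusted p = 0.682).

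*Il2rg*, the common gamma chain of the receptors for IL-2, IL-4, IL-7 and IL-15, had 1787, 2526, 2175 and 1697 normalized counts in mutant and 2726, 2656, 2314 and 2712 in wild-type libraries. The groups overlapped, and the fall was small (log2 fold change -0.35, SE 0.12, adjusted p = 0.0394). It did not pass with another normalization (0.0518), nor without mutant replicates 1, 3 or 4 (0.127, 0.0552 and 0.12) or wild type replicates 1, 2 or 4 (0.111, 0.0972 and 0.0979). *Il6st* encodes gp130, the signalling chain for IL-6, IL-11 and LIF, and had the most counts of all receptor genes here. It had 13664, 13091, 12197 and 13692 against 11175, 10932, 11544 and 12423 (log2 fold change 0.19, SE 0.07, adjusted p = 0.052), which was 0.0197 with DESeq2 and 0.0276 with the label prefix as a block. *Il6ra*, which binds IL-6 itself, had 486 to 663 against 537 to 843 (log2 fold change -0.16, adjusted p = 0.439).

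The 2 inhibitors had log2 fold changes above 0 that did not pass the test without a block. *Il1rn*, the IL-1 receptor antagonist, had 10.1, 14.3, 84.0 and 235 normalized counts in mutant and 2.76, 4.69, 42.3 and 25.2 in wild-type libraries (log2 fold change 2.21, SE 0.99, adjusted p = 0.0947). With the label prefix as a block it was called higher (log2 fold change 1.98, adjusted p = 0.00364). Mutant libraries 3 and 4 and wild-type libraries 3 and 4 were the high ones in their groups. *Il18bp*, which binds and blocks IL-18, had 110 to 186 against 96.5 to 128 (log2 fold change 0.43, adjusted p = 0.0854, and 0.0322 with that block), and lies across *Numa1* on the opposite strand.

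Other genes of cytokine signalling were taken from a list of 54 that excludes the 83 genes, and 52 were tested. Of these 12 rose and 13 fell (48.1%, background 44.4%), and 6 were called (11.5%, background 14.0%). The receptor chain *Csf2rb*, the common beta chain that pairs with the IL-3 chain described above, had 1092, 874, 1156 and 1688 normalized counts in mutant and 86.4, 108, 245 and 171 in wild-type libraries (log2 fold change 2.98, SE 0.32, adjusted p = 5.94e-05). Its close copy *Csf2rb2* had a smaller difference (log2 fold change 1.03, adjusted p = 0.0211), and reads may have been split between the copies. The call on *Csf2rb2* was lost without mutant replicate 4 (log2 fold change 0.73, adjusted p = 0.0554) and without wild type replicates 1 or 2 (adjusted p = 0.0585 and 0.0576). *Csf3*, the growth factor for neutrophils, had 1725 to 2707 normalized counts in mutant and 547 to 817 in wild-type libraries (log2 fold change 1.55, SE 0.16), and *Tslp*, an epithelial cytokine that acts through a receptor with the CRLF2 chain, was called higher (log2 fold change 1.18, SE 0.34), though not without wild type replicate 1 (0.97). *Cntfr*, the receptor chain for ciliary neurotrophic factor, was called lower (log2 fold change -1.46, SE 0.27), as was *Socs1*, an inhibitor of JAK kinases (log2 fold change -1.25, SE 0.21). Of 11 JAK and STAT genes 2 rose and 6 fell, none past the fold limit.

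The library labels carry 3 prefixes, each with libraries of both genotypes, the first with replicates 1 and 2 and the others with replicate 3 and replicate 4. What the prefixes stand for is not given in the sources used here, and the labels do not tie them to litters. With the prefix as a block, 17 genes passed the test that did not without it, and none was lost. They were *Ccl7*, *Ccl24*, *Cxcl3*, *Cxcl16*, *Il1b*, *Il1rn*, *Il6*, *Il6st*, *Il11*, *Il12a*, *Il12rb2*, *Il15ra*, *Il17c*, *Il17rd*, *Il18bp*, *Il21r* and *Il34*. Computed within each prefix with a pseudocount of 1, the log2 ratio of *Cxcl12* was -2.996, -1.49 and -3.28, that of *Cxcr4* 1.08, 0.76 and 0.84, that of *Ackr1* 2.00, 1.62 and 2.15 and that of *Il23a* 3.07, 3.57 and 3.35. *Ccl2* had 0.92, 1.25 and 2.72. The direction was the same in each prefix for these 5 genes. For *Cxcl12*, *Cxcr4*, *Ackr1* and *Il23a* the groups do not overlap, so any split gives the same direction and adds no support. A prefix with 1 library per genotype gives no test of its own.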

How the data were processed

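Trimmomatic was used to trim the reads and STAR to map them to GRCm38. The authors deposited whole-number counts of reads per gene for each library, without normalization, and a normalized signal (16889 genes) that equals the counts over 1 DESeq2 size factor per library. Multiplied by that factor, 100% of the values were whole reads within 0.01, so the table repeats the counts. The counting program and its use of strand are not given in the sources used here, which leaves opposite-strand overlaps uncertain. The normalized table has every gene with at least 81 counts in all and was used to choose the genes. Symbols came from GENCODE vM21 for 48970 of 49315 identifiers (16850 of 16889 in the normalized table).

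The counts were tested with edgeR 4.0.16 (R 4.3.3): TMM scaling, filterByExpr (minimum count 10), glmQLFit and glmQLFTest over 16887 genes with no covariate, and Benjamini-Hochberg adjustment over all of them. Called genes had an adjusted p under 0.05 and changed by over 1 on the log2 scale. Marker sums in CPM were compared by exact two-sided permutation. Libraries held 24833373 to 34196955 counts on genes, and genes with a few counts also carry counting error. Each library is 1 pup, and libraries of a group differed by more than the counting noise. The scripts were tested on simulated data.

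The genes and lists were chosen with earlier results of these data known. Named genes are those called, the 10 of highest wild-type level per kb, a list with known vascular roles, the called genes of the signalling list and *Map2k1*, and others were named after their values were seen. Lists of marker genes cover endothelial cells, microglia, border macrophages and monocytes, neutrophils, lymphocytes, platelets, pericytes, smooth muscle, fibroblasts, astrocytes, neurons, the oligodendrocyte lineage and red blood cells.

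Alternatives were DESeq2 1.42.0, its normalization within edgeR, no filter on low counts, the genes of the normalized table only, no fold limit, a block for the replicate number or for the label prefix, and each library left out. The ddPCR and immunostaining of the study were not analysed here. Values of some genes are not reported here.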

Additional observations from a re-analysis of the deposited data

Results flagged for a closer look

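In 74 groups of 4 libraries, the gap between the outermost library and its nearest neighbour was compared with the whole range of the group. In 8 groups this share exceeded Dixon's 95% critical value, while chance alone marks about 1 group in 20. In 6 of them the outermost library was wild-type library 3, which is among the 3 libraries with the highest microglia sum (704 CPM). *Cxcl12* had 12764 normalized counts there, beside a wild-type median of 19201. *Ackr3* had 1119 (median 1427), *Il10rb* 1358 (median 1585) and *Il2rg* 2314 (median 2684). *Il1b* had 159 (median 47.6) and *Il1rl1* 20.7 (median 10.7). *Il23a* had 36.6 in wild-type library 2 (median 19.1), and *Il17d* had 6.32 in mutant library 1 (median 7.73). Without wild type replicate 3, *Cxcl12* and *Il10rb* were lower in mutant ECs and passed the test of edgeR. For both genes that library was the wild-type one nearest the mutant libraries. Leaving it out can only widen the fall and is no check on it.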

How the results depend on the processing

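Without the fold limit, 28 of the genes differed (16 higher, 12 lower) and 7504 of all genes (3631 higher, 3873 lower). Wild-type pups were matched to mutant pups within litters, but the labels do not say that the replicate numbers pair the pups. They were therefore not taken as pairs. The correlation of same-numbered libraries was 0.0241 for number 4 (0.20 to 0.29 for the others), and not every library correlated best with its own number. Such correlations cannot decide how the pups were matched. With the number as a replicate block, 23 of the genes were called (15 higher, 8 lower), among them all 16 called without it, and *Cxcl3*, *Il11*, *Il12a*, *Il12rb2*, *Il1b*, *Il1rn* and *Il21r* were added. The label prefix as a block also gave 23 (15 higher, 8 lower). By adjusted p alone, 41 passed with the replicate block and 45 with the prefix as a block, beside 28 without (8162, 8610 and 7504 of all genes), and with a library left out 20 to 33 passed. With each library left out, 12 to 20 were called (7 to 12 higher, 5 to 8 lower), and of all genes 2168 to 2662 (934 to 1152 higher, 1179 to 1604 lower). The other tools, filters and normalizations called 16 to 19 and kept all 16. Of 518 values of named genes under the alternatives, 447 kept their direction and side of the threshold, 28 lost and 21 gained an adjusted p under 0.05, and 22 changed sign, all of them in genes that did not pass the test. The sign changed for *Ackr2* with RLE normalization (0.0117) and DESeq2 (0.0150) and for *Ccl4* with the replicate block (-0.0095). It also changed with a library left out, over ranges of -0.15 to 0.14 for *Ackr2*, -0.0725 to 0.16 for *Ackr3*, -0.52 to 0.66 for *Ccl3*, -0.20 to 0.87 for *Ccl4*, -0.49 to 0.58 for *Il1a*, -0.19 to 0.25 for *Il33* and -0.23 to 0.0178 for *Il6ra*. Causes were not tested. Counting error adds to the spread between pups for genes with a few counts per library. *Ccl5* and *Il10* had coefficients of variation of 94.3% and 60.9% in mutant libraries.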

Other observations

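The spread between pups differed widely between genes. *Ccl25* had a coefficient of variation of 4.23% in wild-type and 22.7% in mutant libraries, *Il1rap* 5.33% and 8.22%, and *Il6st* 5.67% and 5.32%. *Ackr2* had 6.26% and 27.1%. At the other end, *Cxcl3* had 128% and 116%, and *Il1rn* 99.8% and 122%.

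Summed per kb of exon, the 8 chemokine receptors had 3004 ± 594 normalized counts in mutant and 1676 ± 263 in wild-type libraries (SD, n = 4), most of it from *Cxcr4*. The 5 atypical receptors had 2758 ± 197 and 1591 ± 131, with 2579 to 2990 in mutant and 1486 to 1780 in wild-type libraries. *Ackr1* alone had 1582 per kb in mutant and 413 in wild-type libraries, and none of the other atypical receptors passed the test. The CXC ligands summed to 4775 ± 1743 and 5172 ± 746. *Cxcl12* was lower there while *Cxcl1* and *Cxcl2* had higher means in mutant libraries. The 28 interleukin receptors summed to 5706 ± 220 and 5285 ± 116, with 5532 to 6018 in mutant and 5125 to 5394 in wild-type libraries.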
